A study of Rattus norvegicus with 12 samples.

Results

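Chemokines are small secreted proteins that draw leukocytes along a gradient through receptors on the leukocyte surface. They are named after the spacing of their first cysteines (C-C, C-X-C or C-X3-C). Stromal and parenchymal cells, cardiomyocytes and cardiac fibroblasts included, make several of them when interferon or NF-κB signalling is switched on, whereas Cxcl12 is made constitutively. The mRNAs of 10 chemokine ligands (Cxcl1, Cxcl9, Cxcl10, Cxcl11, Cxcl12, Cxcl16, Cx3cl1, Ccl2, Ccl5 and Ccl7) were measured in neonatal rat ventricular myocytes (NRVMs). They were taken by symbol from a table of 18469 genes, and all 10 were found in it.

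NRVMs of the Sprague-Dawley strain were isolated from newborn rat left ventricles, with a Percoll gradient to part myocytes from fibroblasts, and bulk RNA was sequenced in 12 libraries. The 4 groups of 3 libraries were siNeg (a negative control siRNA), siNeg.PE (the same siRNA with phenylephrine), siSlc25a26 (an siRNA against the mitochondrial S-adenosylmethionine carrier Slc25a26) and siSlc25a26.PE (that siRNA with phenylephrine). Phenylephrine (PE), an α1-adrenergic agonist that makes cultured myocytes hypertrophy, was given for 36 h, starting 12 h after transfection, and all 4 groups had been transfected with an siRNA. A single siRNA against Slc25a26 was used, and there was no untransfected group, so an effect of the target and an effect of that particular RNA cannot be told apart. The groups, the siRNA target and the times follow the labels of the deposited samples. The paper that cites these data describes an siRNA against Nap1l5 and other times, and which siRNA the libraries received was not settled here, so every value of siSlc25a26 below is one of libraries so labelled. The labels do not say whether the 3 libraries of a group came from separate isolations, and the p-values measure the spread between these libraries.

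The libraries held 24770954 to 28709062 counts, so that 3 counts in a library corresponded to 0.0983 to 0.121 CPM (counts scaled to the library's normalized total). Slc25a26 was at 31.8 ± 2.19 CPM in siNeg and 15.0 ± 0.588 CPM in siSlc25a26 (SD, n = 3), a fall of 1.08 on the log2 scale (edgeR quasi-likelihood test with Benjamini-Hochberg adjustment over all tested genes, adjusted p = 1.08e-05). In the libraries labelled siSlc25a26.PE it was at 101 ± 3.08 CPM against 102 ± 14.0 CPM in siNeg.PE (log2 fold change −0.01, 95% interval −0.24 to 0.22, adjusted p = 0.969). A fall of the targeted mRNA was thus not detected in those libraries at harvest, and every difference between siSlc25a26.PE and siNeg.PE below is one between libraries so labelled. Nap1l5, read because of that mismatch, was also lower in the libraries labelled siSlc25a26, with a log2 fold change of −0.84 without PE (SE 0.286, adjusted p = 0.0397) and −1.05 with PE (SE 0.147, adjusted p = 0.000636). The 8 cardiomyocyte markers (Tnnt2, Myh6 and others) were detected in all groups, at a summed 17524 to 24554 CPM over the 12 libraries. The 8 fibroblast markers (Col1a1, Dcn and others) were also abundant, at 8608 to 23878 CPM, and the 8 macrophage markers summed to 37.9 to 128 CPM. Markers of other cells were thus present in every library, and in bulk RNA fewer cells of a type and less RNA per cell cannot be told apart.

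Cxcl10, Cxcl11 and Cxcl9 are the interferon-inducible ligands of CXCR3, the receptor of activated T cells and NK cells. All were higher in siSlc25a26 than in siNeg, and Cxcl10 had the largest fitted fold of the 10 ligands. Cxcl10 (gene ID 245920) was at 14.4, 9.31 and 11.7 CPM in siNeg, at 7.95, 5.83 and 6.64 CPM in siNeg.PE, at 504, 445 and 493 CPM in siSlc25a26, and at 218, 208 and 195 CPM in siSlc25a26.PE. The 4 groups did not overlap, and the PE libraries were the lower ones with either siRNA. Without PE, Cxcl10 rose 40.6-fold with siSlc25a26 (log2 fold change 5.34, SE 0.136, adjusted p = 5.83e-09).

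Cxcl11 (gene ID 305236) lay lower. It was at 4.01, 3.39 and 2.37 CPM in siNeg, at 1.53, 1.93 and 2.45 CPM in siNeg.PE, at 15.3, 14.7 and 12.6 CPM in siSlc25a26, and at 5.56, 5.55 and 5.53 CPM in siSlc25a26.PE. The siSlc25a26 libraries were above all others, whereas siNeg and siNeg.PE overlapped. Without PE the rise was 4.36-fold (log2 fold change 2.12, SE 0.176, adjusted p = 2.31e-05).

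Cxcl9 (gene ID 246759) was close to the limit of the depth. It had 1, 0 and 1 counts in the siNeg libraries, 0, 1 and 0 in siNeg.PE, 16, 13 and 14 in siSlc25a26, and 2, 2 and 2 in siSlc25a26.PE. Over the group, 43 counts in siSlc25a26 stood against 2 in siNeg, a ratio of 19.3 after scaling for library size (95% interval 5.03 to 165, counting error only). The test over all genes gave an adjusted p of 0.000931. Cxcl9 entered that test only through its siSlc25a26 counts, so this p is not separate support for the rise. With PE, 6 counts stood against 1, a ratio of 5.85 with an interval of 0.710 to 269, and Cxcl9 did not pass the filter on low counts. The difference in level between Cxcl9 and its neighbours Cxcl10 and Cxcl11 was also large per length: in siSlc25a26 the mean FPKM (fragments scaled to transcript length and library size) was 1.08 for Cxcl9, 15.4 for Cxcl11 and 480.3 for Cxcl10.

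**Figure D1:**
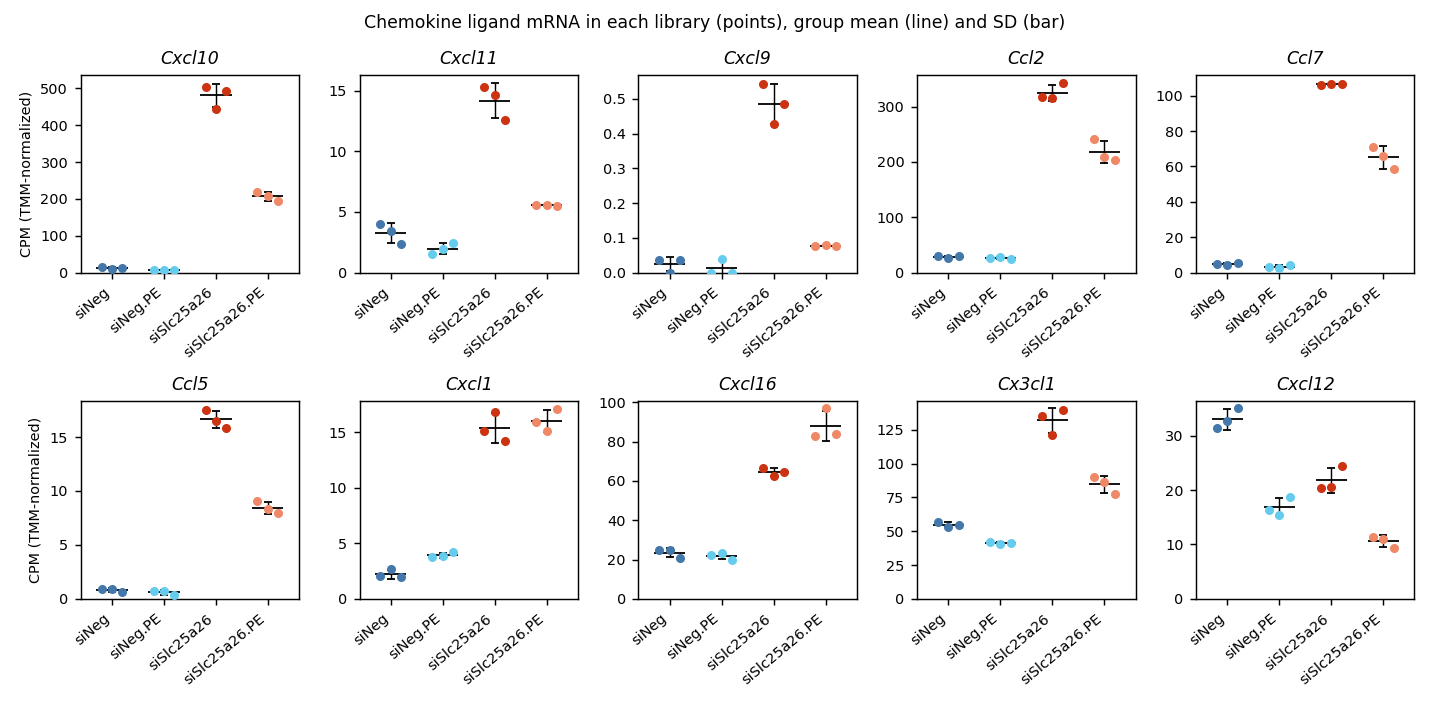
Level of each ligand in CPM, on a linear axis from 0 that differs between panels, for the 3 libraries of each group (points), with the group mean (line) and SD (bar). In 9 of the 10 panels both siSlc25a26 groups lie above both siNeg groups, and the exception is Cxcl12, which is highest in siNeg. For Cxcl9 the siSlc25a26.PE points rest on 2 counts in each library.

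Promoters of the CXCR3 ligands are shown because these genes lie side by side and moved together while their levels were far apart. The RefSeq table of promoters (build GRCr8) held 8 of the 10 ligands. The 250 bases before the annotated start of Cxcl10 are chr14:15988816-15989065 on the plus strand, and those of Cxcl11 are chr14:15973478-15973727 on the plus strand. Both strands were searched for an interferon-stimulated response element core (ISRE, GAAA followed by any 2 bases and GAAA), a gamma-activated site core (GAS, TTCNNNGAA), the NF-κB consensus motif and a TATA box (TATAAA). Capitals mark the matches, all on the gene strand unless stated.

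Cxcl10: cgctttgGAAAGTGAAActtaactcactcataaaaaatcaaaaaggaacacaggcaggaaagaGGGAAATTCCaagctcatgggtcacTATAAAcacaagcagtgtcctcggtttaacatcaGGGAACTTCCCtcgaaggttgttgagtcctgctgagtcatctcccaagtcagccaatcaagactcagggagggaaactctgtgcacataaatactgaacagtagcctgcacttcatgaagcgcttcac
Cxcl11: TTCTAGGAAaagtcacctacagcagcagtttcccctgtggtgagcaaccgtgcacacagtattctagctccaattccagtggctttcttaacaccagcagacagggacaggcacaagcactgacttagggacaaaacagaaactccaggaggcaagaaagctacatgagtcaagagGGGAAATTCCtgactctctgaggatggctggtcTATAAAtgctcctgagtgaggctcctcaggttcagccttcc

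The Cxcl10 window held the ISRE core at −243 to −234 from the start, NF-κB matches at −187 to −178 and at −128 to −119, and TATAAA at −162 to −157. The second NF-κB match overlapped another on the other strand at −127 to −118, so both are the same site. The Cxcl11 window held a GAS core at −250 to −242, an NF-κB match at −74 to −65 and TATAAA at −41 to −36. The Cxcl9 window (chr14:16006916-16007165, plus strand) held none of the 4 motifs. Over 33469 promoters of the same length, the ISRE core was found in 3.41%, the GAS core in 7.67%, the NF-κB motif in 6.33% and TATAAA in 12.9%. In the same reference Cxcl10 and Cxcl11 lie within the span of Art3, which runs on the opposite strand, and whether the counting used strand is not given in the sources used here. Art3 was at 477 ± 20.5 CPM in siNeg and 646 ± 24.2 CPM in siSlc25a26, and reads shared between these genes cannot be told apart.

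Ccl2, Ccl7 and Ccl5 attract monocytes and T cells, Ccl2 and Ccl7 through CCR2. Each was more than 10-fold higher in siSlc25a26 than in siNeg. Ccl2 (gene ID 24770), also known as MCP-1, was at 30.1, 26.0 and 29.1 CPM in siNeg, at 26.2, 27.9 and 24.4 CPM in siNeg.PE, at 317, 316 and 342 CPM in siSlc25a26, and at 241, 208 and 203 CPM in siSlc25a26.PE. The siNeg groups overlapped with each other, and both siSlc25a26 groups stood clear of them. Without PE the rise was 11.5-fold (log2 fold change 3.52, SE 0.0696, adjusted p = 1.26e-09).

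Ccl7 (gene ID 287561), which lies next to Ccl2 in the RefSeq gene order, changed by a larger fold from a lower level. It was at 4.78, 4.17 and 5.26 CPM in siNeg, at 2.93, 2.47 and 4.23 CPM in siNeg.PE, at 106, 106 and 107 CPM in siSlc25a26, and at 71.1, 66.1 and 58.4 CPM in siSlc25a26.PE. The rise without PE was 22.5-fold (log2 fold change 4.49, SE 0.0797, adjusted p = 7.87e-10). Ccl5 (gene ID 81780), also known as RANTES, was at 0.955, 0.896 and 0.630 CPM in siNeg, at 0.722, 0.734 and 0.322 CPM in siNeg.PE, at 17.5, 16.5 and 15.9 CPM in siSlc25a26, and at 9.07, 8.32 and 7.99 CPM in siSlc25a26.PE. Its values in siNeg and siNeg.PE came from 8 to 26 counts in a library. Ccl5 rose 20.0-fold without PE (log2 fold change 4.32, SE 0.149, adjusted p = 4.87e-08), and for both genes siNeg and siNeg.PE overlapped.

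The window before the start of Ccl7 (chr10:67513845-67514094, plus strand) is shown with that of Cxcl1 (chr14:17479322-17479571, minus strand), as the other 2 ligands whose windows held an NF-κB match. In Ccl7 the match lay on the other strand at −59 to −50 and TATAAA at −34 to −29. In Cxcl1 overlapping matches on both strands covered −84 to −74.

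Ccl7: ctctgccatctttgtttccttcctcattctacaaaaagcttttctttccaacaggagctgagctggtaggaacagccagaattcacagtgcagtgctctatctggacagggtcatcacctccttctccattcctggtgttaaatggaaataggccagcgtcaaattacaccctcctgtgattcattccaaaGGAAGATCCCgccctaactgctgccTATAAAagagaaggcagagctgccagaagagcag
Cxcl1: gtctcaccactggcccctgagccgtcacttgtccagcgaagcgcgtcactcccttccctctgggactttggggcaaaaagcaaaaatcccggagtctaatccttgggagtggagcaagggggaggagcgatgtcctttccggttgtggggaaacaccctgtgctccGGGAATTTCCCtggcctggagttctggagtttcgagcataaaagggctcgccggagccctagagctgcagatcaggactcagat

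An NF-κB match was thus found in 4 of the 8 windows (Cxcl10, Cxcl11, Ccl7 and Cxcl1). TATAAA was found in 4 of 8, the same without Cxcl1 and with Cx3cl1, where it lay at −78 to −73. The windows of Cxcl16 and Cxcl12 held none of the 4 motifs, and that of Cxcl12 (chr4:152060531-152060780, plus strand), the ligand that fell, is shown beside them. Its GC content was 67.6%. The other windows ran from 45.2% for Cxcl10 to 66.4% for Cx3cl1, both ligands that rose.

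Cxcl12: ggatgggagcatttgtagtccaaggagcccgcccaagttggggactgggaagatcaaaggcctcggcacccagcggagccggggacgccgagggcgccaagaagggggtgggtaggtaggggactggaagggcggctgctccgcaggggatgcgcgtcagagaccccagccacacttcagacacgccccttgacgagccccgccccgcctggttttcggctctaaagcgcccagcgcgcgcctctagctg

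**Figure D2:**
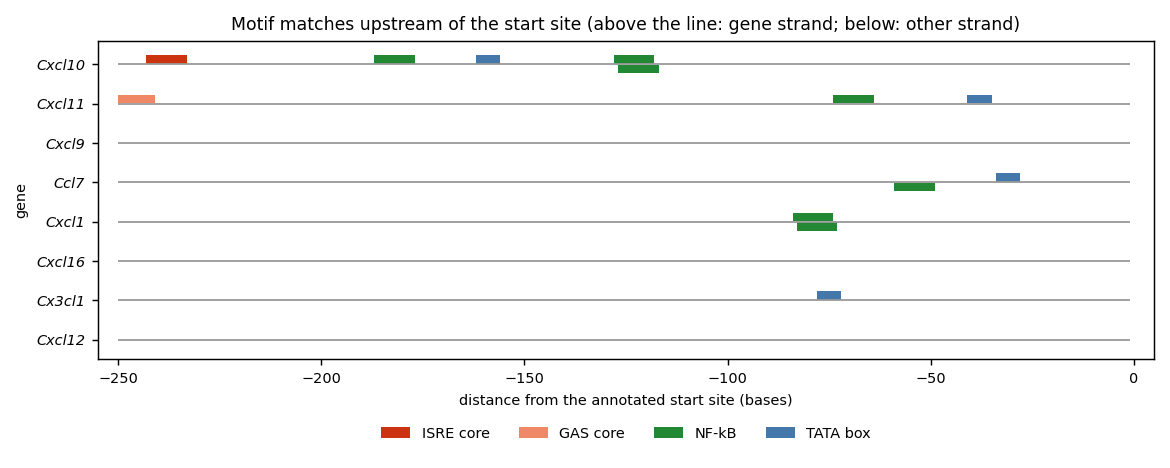
Positions of the motif matches in the 250 bases before the annotated start of 8 ligands (x axis, distance from the start in bases), with matches on the gene strand above each line and those on the other strand below. NF-κB matches appear in Cxcl10, Cxcl11, Ccl7 and Cxcl1, and the ISRE core in Cxcl10.

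Cxcl1 (gene ID 81503), a CXCR2 ligand that attracts neutrophils, behaved differently under PE. It was at 2.06, 2.69 and 1.93 CPM in siNeg, at 3.73, 3.82 and 4.19 CPM in siNeg.PE, at 15.1, 16.8 and 14.2 CPM in siSlc25a26, and at 15.9, 15.1 and 17.1 CPM in siSlc25a26.PE. The siSlc25a26 groups overlapped, whereas each siNeg.PE library was above each siNeg library. Without PE, Cxcl1 rose 6.92-fold with siSlc25a26 (log2 fold change 2.79, SE 0.144, adjusted p = 9.18e-07).

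Cxcl16 and Cx3cl1 (fractalkine) are made as membrane proteins that also act as adhesion molecules and are shed by ADAM10 and ADAM17. Cxcl16 (gene ID 497942), the CXCR6 ligand, was at 24.6, 24.9 and 20.8 CPM in siNeg, at 22.1, 23.4 and 19.9 CPM in siNeg.PE, at 66.5, 62.4 and 64.6 CPM in siSlc25a26, and at 82.7, 96.8 and 84.1 CPM in siSlc25a26.PE. It was the only ligand with all siSlc25a26.PE libraries above all siSlc25a26 libraries. Without PE the rise was 2.75-fold (log2 fold change 1.46, SE 0.0771, adjusted p = 1.08e-06). In the reference Cxcl16 overlaps Zmynd15 on the opposite strand, but Zmynd15 was at 0.561 ± 0.115 CPM in siNeg and 2.18 ± 0.0479 CPM in siSlc25a26.

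Cx3cl1 (gene ID 89808), the CX3CR1 ligand, was at 57.0, 53.0 and 54.4 CPM in siNeg, at 42.2, 40.7 and 41.1 CPM in siNeg.PE, at 135, 121 and 139 CPM in siSlc25a26, and at 89.9, 86.6 and 77.8 CPM in siSlc25a26.PE. The 4 groups did not overlap. The rise without PE was 2.41-fold (log2 fold change 1.27, SE 0.0639, adjusted p = 7.91e-07), the smallest among the ligands that rose.

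Cxcl12 (gene ID 24772), also known as SDF-1, the constitutive ligand of CXCR4, went the other way. It was at 31.3, 32.6 and 35.1 CPM in siNeg, at 16.3, 15.5 and 18.7 CPM in siNeg.PE, at 20.4, 20.5 and 24.4 CPM in siSlc25a26, and at 11.5, 11.1 and 9.30 CPM in siSlc25a26.PE. The groups did not overlap, and Cxcl12 was lower both with siSlc25a26 and with PE. Without PE the fall was to 0.659 times siNeg (log2 fold change −0.60, SE 0.0900, adjusted p = 0.000782), close to the 1.5-fold limit. Without siNeg replicate 3 it was −0.57, and without siSlc25a26 replicate 1 or 2 it was −0.55 or −0.56, each below that limit. The summed fibroblast markers were also lower, at 12349 to 13896 CPM in siSlc25a26 against 21809 to 23878 CPM in siNeg, with 5 of 8 called lower and 0 higher. Their part in the fall of Cxcl12 was not tested.

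A gene was called where its fold exceeded 1.5 and its adjusted p was under 0.05. Without PE all 10 ligands passed the filter on low counts, 9 were called higher and Cxcl12 was called lower. Over the 13829 genes tested, 16.1% were called, 8.92% higher and 7.20% lower. The median log2 fold change of the 10 ligands was 3.15, and that of all tested genes was 0.01. The libraries of the compared groups did not overlap for 10 of 10 ligands, against 56.5% of all tested genes. Cxcl9, with 2 counts over the siNeg libraries, passed the filter only through siSlc25a26. Its places in the 9 called higher and in the 10 of 10 were thus set by the filter, and the median of 3.15 includes it. The fibroblast and macrophage markers moved down in the same comparison (5 of 6 tested macrophage markers called lower, 0 higher). Cd163 was at 0 in siSlc25a26, and also in siNeg.PE and siSlc25a26.PE. The cardiomyocyte markers had 1 of 8 called, Myh6, which was lower.

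In the libraries labelled siSlc25a26.PE, where no fall of Slc25a26 was detected, Cxcl10, Cxcl11, Ccl2, Ccl5 and Ccl7 were again above their control, siNeg.PE. Of the 9 ligands tested, 8 were called higher and Cxcl12 was called lower, against 15.8% of 13671 genes called in either direction (7.71% higher, 8.10% lower). The groups did not overlap for 9 of the 9 ligands, against 51.8% of all tested genes. Cxcl10 was 30.6-fold higher (log2 fold change 4.94, SE 0.112, adjusted p = 5.56e-09) and Ccl7 20.5-fold higher (log2 fold change 4.36, SE 0.160, adjusted p = 1.08e-07). The log2 fold change was 3.83 for Ccl5, 3.06 for Ccl2, 2.04 for Cxcl1, 2.02 for Cxcl16 and 1.05 for Cx3cl1, and Cxcl11 was 2.84-fold higher. That of Cxcl12 was −0.65 (SE 0.111, adjusted p = 0.00181), and without siSlc25a26.PE replicate 3 it was −0.55, below the fold limit. The median over the 9 tested ligands was 2.04, and over all genes it was 0.00. Fibroblast markers had 3 of 8 called lower and 1 higher (Tcf21), and 2 of 6 tested macrophage markers were called lower.

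**Figure D3:**
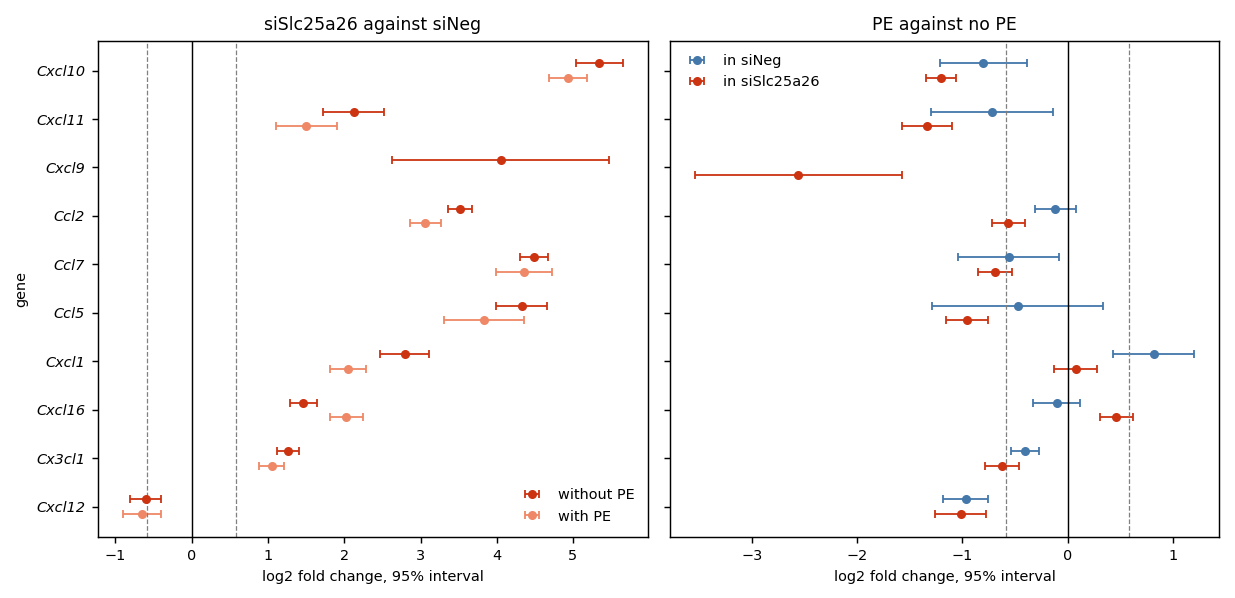
Log2 fold change of each ligand with its 95% interval, for siSlc25a26 against siNeg with and without PE (left) and for PE against no PE with either siRNA (right); dashed lines mark a fold of 1.5. Cxcl9 is missing where it was not tested, and its siNeg libraries held 2 counts in all, so its interval on the left depends on the prior of the fit.

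PE itself moved fewer ligands. In siNeg.PE against siNeg, 9 ligands were tested, 1 was called higher (Cxcl1) and 3 were called lower (Cxcl10, Cxcl11 and Cxcl12), against 20.7% of 13719 genes called (12.4% higher, 8.24% lower). The groups did not overlap for 4 of the 9, against 58.7% of all tested genes. Cxcl1 was 1.76-fold higher with PE (log2 fold change 0.82, SE 0.169, adjusted p = 0.00492). Cxcl12 fell by 0.97 on the log2 scale (SE 0.0929, adjusted p = 0.000136) and Cxcl10 by 0.80 (SE 0.181, adjusted p = 0.00729). Cxcl11 fell by 0.72 with overlapping groups (SE 0.253, adjusted p = 0.0436), and this call was lost without siNeg replicate 1 or 2 or without siNeg.PE replicate 1 or 2 (adjusted p = 0.110 to 0.156). Cx3cl1 was at −0.40, with an adjusted p of 0.000991 but a fold under 1.5. Ccl7 was at −0.56 (adjusted p = 0.0552), and without siNeg.PE replicate 3, its highest siNeg.PE library, it was called at −0.81 (adjusted p = 0.00925). Ccl5 at −0.47, Ccl2 at −0.12 and Cxcl16 at −0.10 did not pass the test. Fibroblast markers were at 11705 to 12176 CPM in siNeg.PE, and 4 of 8 were called lower. Macrophage markers were at 57.3 to 64.9 CPM in siNeg.PE against 105 to 128 CPM in siNeg, with 5 of 6 tested called lower. The part of either in the lower ligands was not tested.

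In siSlc25a26.PE against siSlc25a26 all 10 ligands were tested, 0 were called higher and 7 were called lower, against 20.5% of 13776 genes called (10.1% higher, 10.4% lower). The groups did not overlap for 9 of the 10, the exception being Cxcl1, against 61% of all tested genes. The 3 CXCR3 ligands had the largest falls. Cxcl9 went from 43 counts to 6, 6.25-fold lower (interval 2.65 to 18.0, counting error only). It passed the filter only through siSlc25a26, so its places among the 7 called lower and the 9 without overlap were set by the filter. Cxcl11 fell by 1.34 on the log2 scale (SE 0.105, adjusted p = 1.13e-05) and Cxcl10 by 1.20 (SE 0.0631, adjusted p = 1.01e-06). Cxcl12 fell by 1.02, Ccl5 by 0.96, Ccl7 by 0.69 and Cx3cl1 by 0.62. The call of Cx3cl1 was lost to the fold limit without siSlc25a26.PE replicate 3 (−0.56) or siSlc25a26 replicate 3 (−0.58). Ccl2 was at −0.56 (adjusted p = 0.000169) and Cxcl16 at 0.46 (adjusted p = 0.000559), both under a fold of 1.5. Without siSlc25a26.PE replicate 1, Ccl2 passed at −0.64. Cxcl1 was at 0.08 (adjusted p = 0.506). Both siSlc25a26 groups stayed above siNeg for these ligands other than Cxcl12, though for Cxcl9 the siSlc25a26.PE value rests on 2 counts in each library. In this comparison the targeted Slc25a26 mRNA itself was 6.82-fold higher with PE, and the part of that in the lower ligands was not tested. The summed fibroblast markers were lower with PE, at 8608 to 9412 against 12349 to 13896 CPM (1 of 8 called lower, 0 higher). Macrophage markers were at 37.9 to 43.9 against 54.9 to 63.4 CPM (1 of 6 tested called lower, 0 higher) and endothelial markers at 12.1 to 13.4 against 18.8 to 19.4 CPM (1 of 6 called lower, 0 higher). Cardiomyocyte markers were higher, at 22783 to 23886 against 17524 to 20511 CPM (3 of 8 called higher, 0 lower). The part of these markers in the lower ligands was not tested.

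The comparisons above share groups, so whether the PE effect differed between the siRNAs was tested directly in a fit of all 12 libraries. Cxcl1 was the only ligand of 10 called, with its PE effect lower by 0.76 on the log2 scale with siSlc25a26 than with siNeg (SE 0.171, adjusted p = 0.0137), against 5.50% of 14097 genes called (2.16% higher, 3.34% lower). Cxcl16 had a difference of 0.55 (adjusted p = 0.0145) and Ccl2 one of −0.47 (adjusted p = 0.0208), both under a fold of 1.5. Cxcl16 was called without siNeg replicate 3, siNeg.PE replicate 2 or siSlc25a26.PE replicate 1 (0.59 to 0.62), and Cxcl10 was called without siNeg replicate 1 (−0.59). For the others the 95% intervals of the difference ran from −0.82 to −0.02 for Cxcl10, −1.21 to −0.07 for Cxcl11, −0.44 to −0.03 for Cx3cl1, −1.17 to 0.15 for Ccl5 and −5.89 to 2.19 for Cxcl9. Those of Cxcl12 (−0.39 to 0.25) and Ccl7 (−0.58 to 0.29) also included 0.

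Per length, the ligands differed in level within each group. Their summed FPKM was 115 ± 6.38 in siNeg, 89.2 ± 1.38 in siNeg.PE, 1290 ± 34.6 in siSlc25a26 and 682 ± 39.4 in siSlc25a26.PE (SD, n = 3). In siNeg, Ccl2 was first at 40.8 FPKM on average, followed by Cx3cl1 at 17.5 and Cxcl12 at 16.7, which overlapped, and by Cxcl16 at 14.6 and Cxcl10 at 11.3, which also overlapped. Ccl7 (6.56), Cxcl11 (3.37), Cxcl1 (2.46), Ccl5 (1.70) and Cxcl9 (0.0533) came after them, and of these neighbours Cxcl11 and Cxcl1 overlapped. In siNeg.PE, Ccl2 was again first at 36.6 FPKM, with Cxcl16 (13.1) and Cx3cl1 (12.8) overlapping behind it, then Cxcl12 (8.46), Cxcl10 (6.33), Cxcl1 (4.33) and Ccl7 (4.33), the last pair overlapping, and below them Cxcl11 (1.99), Ccl5 (1.18) and Cxcl9 (0.0267).

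In siSlc25a26, Ccl2 at 489 FPKM and Cxcl10 at 480.3 FPKM overlapped at the top, and Ccl7 followed at 154. Cx3cl1 (44.0) and Cxcl16 (41.7) overlapped, as did Cxcl1 (17.4) and Cxcl11 (15.4), with Ccl5 at 35.8 between these pairs, and Cxcl12 had moved to the ninth place at 10.6. In siSlc25a26.PE the order began with Ccl2 at 293, Cxcl10 at 185, Ccl7 at 84.6 and Cxcl16 at 51.0 FPKM, which did not overlap. Cx3cl1 (25.2) came next, then Cxcl1 (16.6) and Ccl5 (16.3), which overlapped, then Cxcl11 (5.37), Cxcl12 (4.43) and Cxcl9 (0.153).

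The composition shifted with the total. Cxcl10 made up 9.79% ± 1.61 of the summed FPKM in siNeg and 37.2% ± 1.33 in siSlc25a26, and 7.11% ± 1.13 in siNeg.PE and 27.2% ± 0.444 in siSlc25a26.PE. Ccl2 had the largest mean share in every group, from 35.5% ± 1.17 in siNeg to 42.9% ± 1.46 in siSlc25a26.PE. Cxcl12 went from 14.5% ± 1.22 in siNeg to 0.819% ± 0.0680 in siSlc25a26, and Cx3cl1 from 15.3% ± 0.374 to 3.41% ± 0.106.

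**Figure D4:**
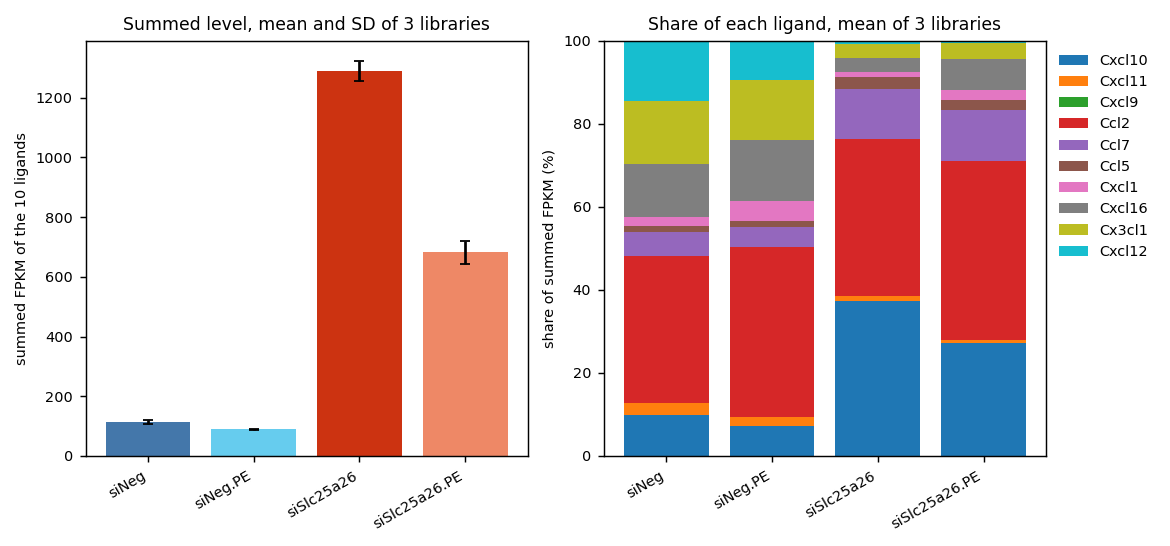
Summed FPKM of the 10 ligands in each group (left, mean and SD of 3 libraries) and the share of each ligand in that sum (right, mean of 3 libraries, in %). The sum goes from 115 in siNeg to 1290 in siSlc25a26, and the Cxcl10 share from 9.79% to 37.2%.

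Other genes of the chemokine system were read from fixed lists. Of 25 other chemokine ligands, 10 were tested without PE, of which 6 were called higher, against 8.92% of all tested genes. The 1 called lower, against 7.2%, was Pf4 (platelet factor 4, log2 fold change −1.46, adjusted p = 0.00176). In siNeg.PE against siNeg only 5 were tested. Ccl12, Cxcl6, Ccl4 and Cxcl17, given below, passed the filter on low counts only through siSlc25a26. So did Cxcl13, with 2 to 4 counts in the siNeg libraries and 25 to 56 in those of siSlc25a26. The part of these ligands in the count was thus set by the filter. Ccl12, a monocyte attractant whose gene lies near Ccl2 and Ccl7, had 0 counts in all siNeg libraries and 28, 23 and 29 in siSlc25a26, at least 24.0-fold higher with a floor of 3 counts over the group. Cxcl6, a neutrophil attractant, had 94 counts against 1, a ratio of 84.5 with an interval of 14.8 to 3373. The intervals of these ratios cover counting error only, not the spread between libraries. Ccl4, an attractant of monocytes and T cells, had 1300 counts against 20 (2, 4 and 14 in the siNeg libraries), a ratio of 58.4 (37.7 to 96.0), and Cxcl17 had 301 against 6, a ratio of 45.1 (20.5 to 124). With PE, 8 were tested, and 5 were called higher and 0 lower, against 7.71% and 8.1% of all tested genes. Ccl4, Ccl12 and Cxcl17 again passed the filter only through the siSlc25a26.PE libraries. The same held for Cxcl13, with 2 to 10 counts in the siNeg.PE libraries and 17 to 27 in those of siSlc25a26.PE. It also held for Cxcl3, with 17, 17 and 8 counts in siNeg.PE and 74, 45 and 50 in siSlc25a26.PE. The part of these ligands in the count was thus set by the filter. Ccl4 had 454 counts in siSlc25a26.PE against 5 in siNeg.PE (ratio 88.6, interval 37.7 to 274). Ccl12 had 55 against 1 (ratio 53.7, interval 9.24 to 2158). These ligands were at 14.6 CPM or less in each group mean.

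The receptors were scarce. Of 17 signalling receptors 12 were in the table, and only 4 passed the filter on low counts without PE. Cxcr3, the receptor of Cxcl9, Cxcl10 and Cxcl11, was at 0.0750 ± 0.0735 CPM in siNeg and 0.0226 ± 0.0391 CPM in siSlc25a26. Cxcr2, the receptor of Cxcl1, was at 0 CPM in siNeg and 0.0226 ± 0.0391 CPM in siSlc25a26. Both were under 3 counts per library on average. Cxcr4, the receptor of Cxcl12, was at 6.80 ± 0.863 CPM in siNeg, 5.70 ± 0.331 CPM in siSlc25a26, 2.53 ± 0.459 CPM in siNeg.PE and 1.64 ± 0.131 CPM in siSlc25a26.PE. It fell with PE by 1.42 on the log2 scale with siNeg (adjusted p = 0.000423) and by 1.78 with siSlc25a26 (adjusted p = 1.22e-05). Of the receptors tested, 1 was called higher without PE (Cxcr5) and 0 lower, and with PE 0 were called higher and 2 lower (Cxcr4 and Ccr10). Cxcr5 had 7, 5 and 9 counts in siNeg and 14, 18 and 19 in siSlc25a26. It passed the filter on low counts only through siSlc25a26. Ccr10, with 25, 26 and 24 counts in siNeg.PE and 12, 14 and 9 in siSlc25a26.PE, passed only through siNeg.PE. The places of Cxcr5 and Ccr10 in these counts were thus set by the filter. Of all tested genes, 8.92% were called higher and 7.2% lower without PE, and 7.71% and 8.1% with PE. Ackr3, the atypical receptor that takes up Cxcl12, was at 10.3 ± 1.16 CPM in siNeg and 19.0 ± 1.06 CPM in siNeg.PE, a rise of 0.89 (adjusted p = 0.000396). It rose by 0.71 with PE in siSlc25a26 (adjusted p = 0.000299). Ccrl2, an atypical receptor that presents chemerin, rose by 1.42 with siSlc25a26 without PE (adjusted p = 4.67e-05). It was not called in siSlc25a26.PE against siNeg.PE, and PE raised it by 0.81 in siNeg (adjusted p = 0.000872).

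Proteases that shed or trim chemokines moved mostly down. All 6 were tested, and 4 were called lower and 0 higher without PE, against 7.2% and 8.92% of all tested genes. Dpp4, which trims the amino end of Cxcl10 and Cxcl12, was at 4.86 ± 0.585 CPM in siNeg and 0.955 ± 0.315 CPM in siSlc25a26 (log2 fold change −2.34, adjusted p = 6.80e-05). Mmp2 was at 799 ± 43.8 CPM and 356 ± 21.4 CPM in the same groups (log2 fold change −1.16, adjusted p = 1.29e-06), and Mmp9 had a log2 fold change of −1.73 (adjusted p = 0.00330). Adam10, which sheds Cx3cl1 and Cxcl16, was at 90.0 ± 15.7 CPM and 50.3 ± 1.34 CPM (log2 fold change −0.84, adjusted p = 0.000392), and Adam17 was at 0.36 (adjusted p = 0.0701). With PE the same 4 proteases were called lower and Ctss was called higher (log2 fold change 0.65, adjusted p = 0.0440). Besides the fibroblast and macrophage markers, which were lower in siSlc25a26 as given above, the summed mural cell markers were at 2346 to 2540 CPM in siNeg and 1319 to 1527 CPM in siSlc25a26, with 2 of 5 called lower (Acta2 at −0.99 and Myh11 at −1.42) and 0 higher. The part of these markers in the lower proteases was not tested.

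Among 6 cytokines that induce chemokines, 2 were tested without PE (Tnf and Ifnb1) and both were called higher, against 8.92% of all tested genes. In siNeg.PE against siNeg 0 were tested, so both had passed the filter on low counts through siSlc25a26. The count was thus set by the filter and is not a result about the list. Tnf had 2, 9 and 5 counts in siNeg and about 276, 324 and 294 in siSlc25a26, a ratio of 50.2 (30.8 to 88.3). The intervals of Tnf and Ifnb1 cover counting error only. Ifnb1 (interferon β) had 1 count over the siNeg libraries and 158 over the siSlc25a26 libraries, a ratio of 142 (25.1 to 5645). With PE, Tnf had 279 counts against 6 and Ifnb1 had 18 against 0. Both were lower with PE in siSlc25a26, Tnf at 0.358 times (0.312 to 0.410) and Ifnb1 at 0.131 times (0.0754 to 0.213).

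Of 10 transcription factors of the NF-κB, IRF and STAT families, all were tested, and 4 were called higher without PE and 0 lower. Of all tested genes, 8.92% were called higher and 7.2% lower. Irf7 was at 35.3 ± 4.98 CPM in siNeg and 2453 ± 152 CPM in siSlc25a26 (log2 fold change 6.12, adjusted p = 8.73e-10). Stat2 changed by 2.79 (adjusted p = 4.33e-09), Irf9 by 2.20 (adjusted p = 7.78e-09) and Irf1 by 2.01 (adjusted p = 2.00e-08). The NF-κB subunits were between 0.16 (Rela) and 0.52 (Nfkb1), below a fold of 1.5. With PE, 5 were called higher and 0 lower, against 7.71% and 8.1% of all tested genes, and the addition was Nfkb1 at 0.61 (adjusted p = 9.55e-05). With PE, 2 of 10 were called lower in siNeg (Irf7 and Stat2) and 4 of 10 in siSlc25a26 (Irf1, Stat2, Relb and Irf7). Of all tested genes, 8.24% were called lower in siNeg and 10.4% in siSlc25a26. In either direction the shares were 20.7% and 20.5%.

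**Figure D5:**
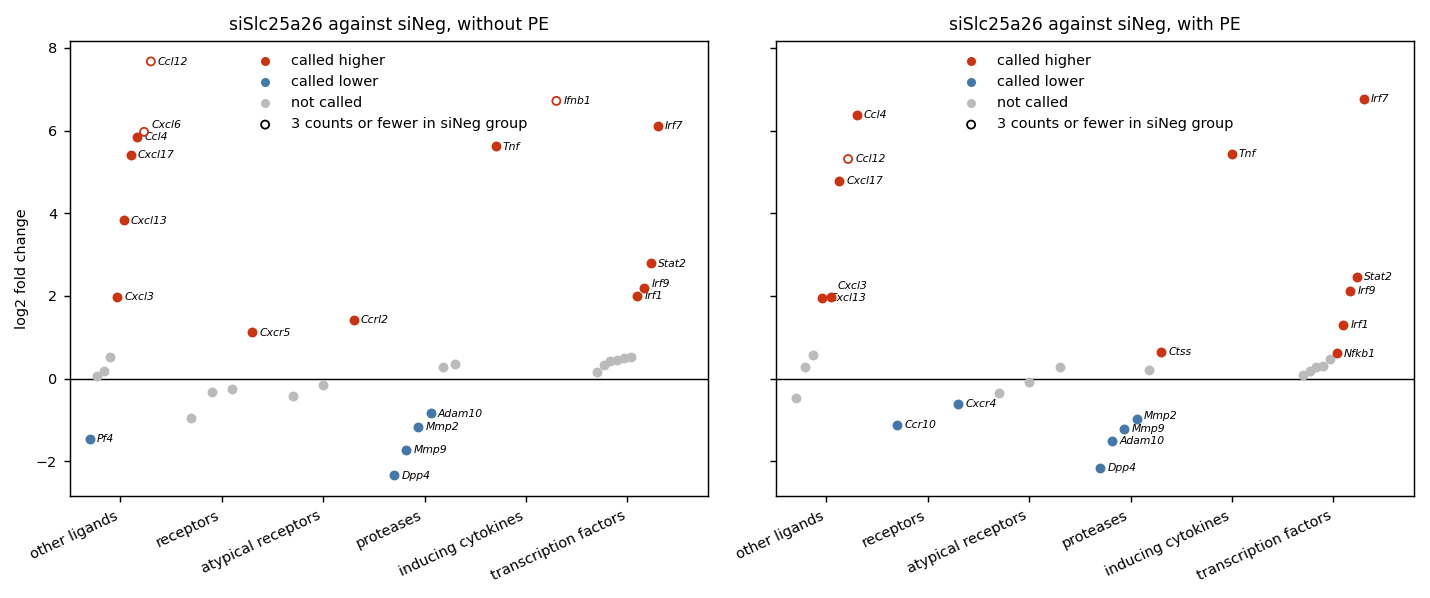
Log2 fold change of siSlc25a26 against siNeg for tested genes of the 6 fixed lists, without PE (left) and with PE (right), with called genes named and coloured. Open points had 3 counts or fewer in the siNeg group, so their fitted value depends on the prior of the fit. Proteases are mostly below 0, and the called inducing cytokines and transcription factors are above it.

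The genes whose log2 CPM followed each ligand most closely over the 12 libraries were taken as a description, since the 4 groups set most of the variation. For Cxcl10 they were Tap1 and Tapbp, which serve antigen loading onto MHC class I, both with a Pearson r of 0.999. For Ccl2 they were Irgm2 and the antiviral gene Rsad2, both 0.998, and for Ccl7 Helz2 (0.998) and RT1-CE7 (0.997). For Ccl5 they were the complement gene C4b (0.997) and LOC360231 (0.996), and for Cx3cl1 the NF-κB feedback gene Tnfaip3 (0.996) and Rnf31 (0.995), a subunit of the linear ubiquitin ligase. Cxcl1 was followed by Slfn4 (0.993) and the proteasome subunit gene Psmd7 (0.992), Cxcl11 by Sgk1 (0.988) and RT1-M3-1 (0.984), Cxcl9 by Cyp27a1 (0.976) and Cacna2d2 (0.972), Cxcl16 by Dok4 (0.990) and Tpm3 (0.990), and Cxcl12 by Ank1 (0.991) and Kmt5c (0.991). Among the ligands themselves, Pearson's r ran from 0.995 between Cxcl10 and Ccl7 down to −0.66 between Cxcl1 and Cxcl12. All 9 values for Cxcl12 were below 0, the weakest being −0.007 with Cxcl9, −0.05 with Cxcl11 and −0.12 with Cx3cl1.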

How the data were processed

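Bulk RNA-seq of 12 NRVM libraries was analysed. The authors deposited, per gene and library, estimated counts and FPKM values. The submitters' processing notes name HISAT, Bowtie2 and the build Rnor_6.0; the counting program, annotation and strand setting are not given in the sources used here. Counts were rounded (21.2% were not whole), filtered with filterByExpr, TMM-normalized and tested with edgeR 4.0.16 (R 4.3.3), with only the compared groups in each fit and all 12 libraries for the difference between PE effects; whole counts had been assumed when the test was chosen. CPM are scaled over all 12 libraries. A call needed a fold above 1.5 and an adjusted p under 0.05. Scripts were tested on simulated data. Of 18469 gene IDs, 91.8% matched RefSeq GRCr8, whose gene order and promoters were used.

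The ligands and gene lists were chosen with earlier results of these data known. From each list the 4 largest called changes were named among genes whose higher group had no library under 10 counts, with the members of any count of 5 or fewer and the receptors of the ligands, Adam17 and the NF-κB subunits, which were added after their values were seen. The 2 genes most like each ligand were named by Pearson's r. No 2 replicates were the same library (chi-square per gene at least 5.52). A planned search of the proteins was not run. Of the lists, 2 genes are not reported here and were left out of the list counts. Alternatives were DESeq2 1.42.0, limma 3.58.1 (voom, and log2 of FPKM with a pseudocount of 1 or 0.1), other size factors and filters, no fold limit, a replicate block, a joint fit, and leaving out each library.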

Additional observations from a re-analysis of the deposited data

Results flagged for a closer look

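Cxcl1 was singled out because its response to PE differed between the siRNAs by a test of the difference itself. PE raised it from 2.22 ± 0.407 to 3.91 ± 0.240 CPM with siNeg, while with siSlc25a26 it was at 15.4 ± 1.32 CPM without and 16.0 ± 0.992 CPM with PE (SD, n = 3). The difference between the PE effects was −0.76 on the log2 scale (SE 0.171, edgeR adjusted p = 0.0137, 14097 genes tested), and over 21 alternatives it ran from −0.92 to −0.68 with adjusted p from 0.00656 to 0.0446. In the libraries labelled siSlc25a26.PE the targeted mRNA was at the level of siNeg.PE, and its part in this difference was not tested.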

How the results depend on the processing

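Of 85 recomputed counts of ligands called, 78 stayed within 1.5 times the reported count, and the other 7 all concerned the difference between PE effects. There, limma on log2(FPKM + 1) called 6, log2(FPKM + 0.1) called 3 and no fold limit called 3, where 1 was reported. Leaving out single libraries gave 9 to 10 called without PE, 8 to 9 with PE, 3 to 5 for PE in siNeg, 6 to 8 for PE in siSlc25a26 and 1 to 2 for the difference. Of 811 recomputed log2 fold changes, 768 kept direction and call, 22 newly passed, 14 no longer passed and 7 reversed. Cxcl1 with PE in siSlc25a26 was −0.066 on the log2(FPKM + 1) scale and −0.070 on the log2(FPKM + 0.1) scale. In the difference between PE effects, leaving out single libraries gave −2.30 to 0.10 for Cxcl9 (positive without siNeg.PE replicate 2), −0.30 to 0.11 for Ccl7 (positive without siNeg.PE replicate 3) and −0.13 to 0.026 for Cxcl12 (positive without replicate 3 of siNeg.PE, siSlc25a26.PE or siSlc25a26), none of them called. The FPKM scales moved the median of all genes to −0.08 and −0.16 for PE in siSlc25a26. Cxcl12 without PE was −0.58 in the joint fit, under the fold limit, and Cxcl11 with PE in siNeg had an adjusted p of 0.0513 with DESeq2, 0.0520 with voom and 0.0507 with log2(FPKM + 1); the cause was not tested. Deviations of same-numbered replicates correlated at −0.09 to 0.22. The mean was 0.13 between siSlc25a26.PE and siNeg.PE and 0.12 between siNeg.PE and siNeg. It was 0.0006 between siSlc25a26 and siNeg and −0.03 between siSlc25a26.PE and siSlc25a26. Whether the numbers pair the samples was not settled by this. With the replicate block the counts were 10, 9, 4, 7 and 1, as without it. The depth limits Cxcl9, and a filter of 10 counts in every library leaves it out.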

Other observations

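Genes beside the ligands in the RefSeq order were looked at after the values of the ligands were known. Cxcl11, Cxcl10 and Cxcl9 lie next to each other. Without PE the genes next in the order had log2 fold changes of 0.44 (Art3), 0.42 (Nup54), 0.49 (Sdad1) and −0.01 (Naaa), none of them called. Art3 is not a separate neighbour, as its span holds Cxcl10 and Cxcl11 and shared reads cannot be told apart. With PE, Sdad1 was called higher at 0.67. Beside Cxcl1 lie Cxcl2, which was not tested, and Cxcl3, which was 1.98 higher on the log2 scale without PE and 1.97 with PE. Mthfd2l, the gene beyond Cxcl2, was called higher without PE at 1.02 and was not called with PE (0.55). Ccl2, Ccl7, Ccl11 and Ccl12 follow each other, and Ccl11, an eosinophil attractant, was at 0.0252 ± 0.0219 CPM in siNeg and 0.0557 ± 0.0515 CPM in siSlc25a26 (SD, n = 3), too low to be tested. Cx3cl1 lies between Ccl17 and Ccl22, neither of which was tested. Beside Cxcl16, Med11 had a log2 fold change of 0.06 and Arrb2 one of 0.08 without PE, against 1.46 for Cxcl16. Zmynd15, on its other side and overlapping it on the opposite strand, was called higher at 1.95 without PE and at 2.90 with PE.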
